A study of Mus musculus with 10 samples.

Results

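Libraries of mouse heart muscle were selected on their level of Myl7, the regulatory myosin light chain of atrial cardiomyocytes, and compared by that level across all genes. All 10 libraries of the series enter: 6 with Myl7 of 10 FPKM or more (called Myl7-high here) and 4 with Myl7 under 1 FPKM (Myl7-low). FPKM is a level scaled to transcript length and to the number of sequenced fragments. The mice were C57BL/6, and each library is 1 mouse number in the labels. The 5 mice labelled NPRA-/- carried a deletion of natriuretic peptide receptor A, encoded by Npr1, that was restricted to the myocardium, and the 5 labelled NPRA+/+ were littermates that kept the receptor. The sources used here do not give the Cre driver, the age of the mice or the chambers dissected. Mice 217, 227 and 231 (NPRA-/-) and 230, 242 and 243 (NPRA+/+) were Myl7-high, and mice 240 and 241 (NPRA-/-) and 228 and 255 (NPRA+/+) were Myl7-low, so each class held both genotypes in the same proportion. The numbers 3 and 3 in the Myl7-high class and 2 and 2 in the Myl7-low class leave class and genotype uncorrelated.

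Atrial and ventricular muscle cells use different light chains on otherwise similar myosin. Myl7 and Myl4 are the regulatory and essential chains of the atria, and Myl2 and Myl3 are their ventricular counterparts. Sln encodes sarcolipin, a small membrane protein of atrial muscle that inhibits the calcium pump of the sarcoplasmic reticulum. Mouse atria also make most of the heart's atrial natriuretic peptide (Nppa), but ventricles express Nppa as well, above all under load.

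Promoters are available for 4 of the 6 genes whose levels run together below (Myl7, Myl4, Mybphl and Hamp; Sln and Dkk3 are the others). They are shown because these genes move together. Each runs from 250 bases before to 50 bases after the annotated start, 5′ to 3′ on the gene's strand, and comes from RefSeq (GRCm38.p6): Myl7 at chr11:5898733-5899032 (minus strand), Myl4 at chr11:104550413-104550712 (plus strand), Mybphl at chr3:108364661-108364960 (plus strand) and Hamp at chr7:30943980-30944279 (minus strand). Capitals mark matches on either strand to any of 5 motifs that were searched.
Myl7: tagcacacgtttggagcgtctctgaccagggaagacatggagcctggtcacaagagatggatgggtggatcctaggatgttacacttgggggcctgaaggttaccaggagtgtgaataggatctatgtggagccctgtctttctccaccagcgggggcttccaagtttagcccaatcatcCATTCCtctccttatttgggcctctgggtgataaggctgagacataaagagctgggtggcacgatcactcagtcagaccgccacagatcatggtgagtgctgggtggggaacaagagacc
Myl4: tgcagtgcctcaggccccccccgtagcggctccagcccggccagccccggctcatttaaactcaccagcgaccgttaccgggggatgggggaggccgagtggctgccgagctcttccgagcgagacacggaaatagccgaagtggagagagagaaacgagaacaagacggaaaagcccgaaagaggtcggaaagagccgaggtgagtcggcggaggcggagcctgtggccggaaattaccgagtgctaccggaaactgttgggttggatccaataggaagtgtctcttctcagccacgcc
Mybphl: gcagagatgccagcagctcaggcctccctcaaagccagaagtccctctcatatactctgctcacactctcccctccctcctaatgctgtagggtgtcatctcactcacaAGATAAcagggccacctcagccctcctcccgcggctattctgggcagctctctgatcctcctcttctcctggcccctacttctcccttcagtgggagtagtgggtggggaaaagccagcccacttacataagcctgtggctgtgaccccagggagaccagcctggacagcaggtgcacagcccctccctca
Hamp: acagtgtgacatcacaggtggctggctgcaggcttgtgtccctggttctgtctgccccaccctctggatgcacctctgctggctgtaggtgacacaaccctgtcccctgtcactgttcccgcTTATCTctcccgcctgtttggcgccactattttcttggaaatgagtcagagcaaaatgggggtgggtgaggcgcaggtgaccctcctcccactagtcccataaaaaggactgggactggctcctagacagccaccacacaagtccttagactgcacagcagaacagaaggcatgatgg
The motif searched for GATA factors was AGATAA, the motif for T-box factors AGGTGT and the half-site of nuclear receptors AGGTCA. The letters of the muscle element MCAT were searched as CATTCC and those of the TATA box as TATAAA. T-box and half-site letters share their first bases, and no matches overlapped here. The Mybphl and Hamp windows each hold 1 GATA match, which 11.2% of the 32851 promoters of this length in the table also hold. The Myl7 window holds 1 MCAT match, present in 14.7% of promoters, and the Myl4 window holds none of the 5. The T-box letters occur in 13.7% of promoters, the half-site in 16.3% and the TATA box in 13.6%.

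The values that set the classes are given as a description only. Myl7 (chromosome 11, 5896637 to 5898782, minus strand, GRCm38/mm10, GENCODE vM21) was at 140.1, 81.8 and 12.7 FPKM in mice 217, 227 and 231 and at 75.4, 73.2 and 26.9 FPKM in mice 230, 242 and 243. It was at 0.263 FPKM in mouse 240, at 0.586 FPKM in mouse 228, and listed at 0 in mice 241 and 255. The members nearest to the thresholds were mouse 231, at 12.7 FPKM, and mouse 228, at 0.586 FPKM. Within the Myl7-high class the highest level was 11 times the lowest, so that class is a range rather than 1 level. The ventricular chains were abundant throughout: Myl2 lay between 2130.0 and 2596 FPKM and Myl3 between 1776 and 2051 FPKM in the 10 libraries. Myl7 thus amounted to 0.524% to 5.56% of the Myl2 level in the Myl7-high libraries, and Myl4 to 0.737% to 6.89% of the Myl3 level. The ventricular chains were thus the main ones in all 10 libraries, and the atrial chains were a small fraction of them in 6.

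Across the whole table the libraries of the classes resembled each other. The values summed to 430059 to 453122 FPKM in Myl7-high and 430735 to 437941 FPKM in Myl7-low libraries, with no depth given. The mitochondrial genome supplied 26.1% to 28.9% of the sum in Myl7-high and 26.8% to 29.6% in Myl7-low libraries. Transcripts at 0 numbered 1476 to 1773 and 1126 to 1670, respectively. Npr1, the deleted gene, lay between 4.12 and 5.20 FPKM in all 10 libraries and did not separate the genotype labels, so directions by genotype refer to the labels.

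**Figure D1:**
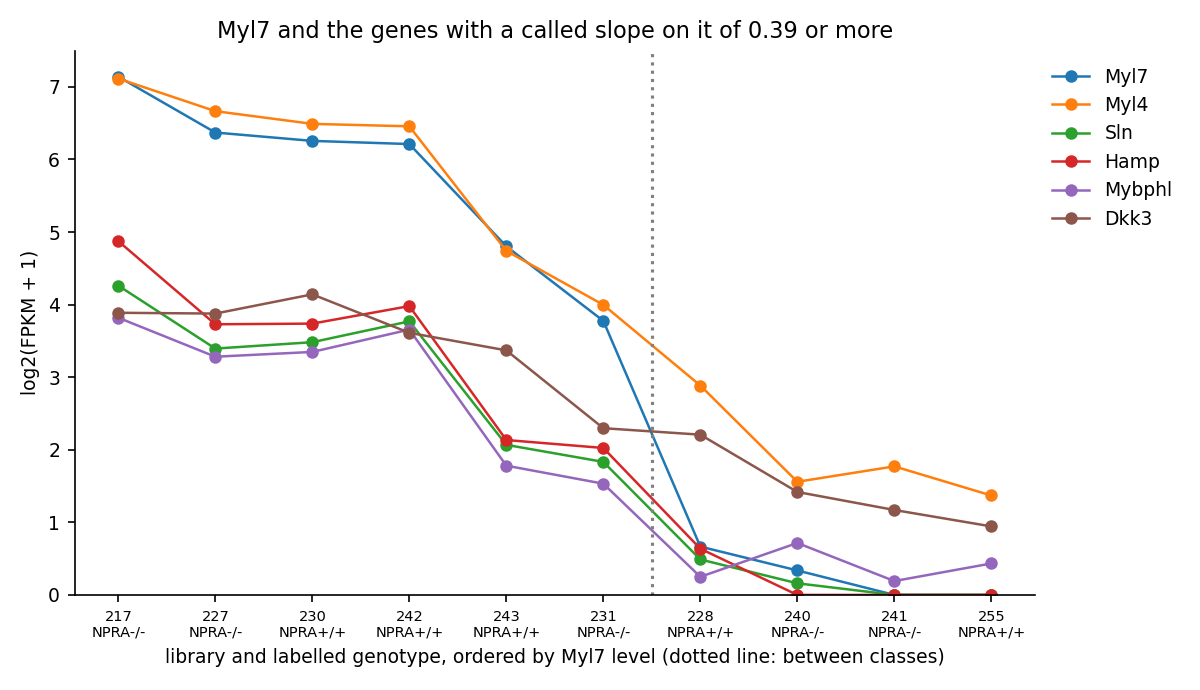
Levels of Myl7 and 5 other genes (vertical axis, log2(FPKM + 1)) in the 10 libraries, ordered along the horizontal axis by their Myl7 level, with the labelled genotype below each mouse number; the dotted line separates the Myl7-high from the Myl7-low class. Myl4 runs close to Myl7 among the 6 Myl7-high libraries, Sln, Hamp and Mybphl lie below in nearly the same order, and Dkk3 is flatter.

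Myl4, the essential light chain of the atria (chromosome 11, 104550663 to 104595753), was at 138, 101 and 15.0 FPKM in mice 217, 227 and 231 and at 88.9, 86.8 and 25.7 FPKM in mice 230, 242 and 243. In the Myl7-low mice 240, 241, 228 and 255 it was at 1.95, 2.41, 6.39 and 1.58 FPKM. The classes did not overlap, and mouse 228, which had the highest Myl7 of its class, also had the highest Myl4. The class difference with genotype in the model was 4.01 on the log2(FPKM + 1) scale (SE 0.61). A two-sided exact permutation of the class within genotype gave p = 0.01, the smallest value that its 100 arrangements allow. Myl4 and Sln had been named as markers with earlier results of these libraries known, so that p is not independent evidence. Whether fewer atrial cells or less RNA per cell lies behind a low level cannot be told apart in tissue RNA.

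Sln (chromosome 9, 53850164 to 53854560) was at 18.2, 9.52 and 2.56 FPKM in mice 217, 227 and 231 and at 10.2, 12.6 and 3.19 FPKM in mice 230, 242 and 243. It was at 0.118 FPKM in mouse 240 and 0.403 FPKM in mouse 228, and was listed at 0 in mice 241 and 255. The classes did not overlap, and the same mice, 231 and 243, were the lowest of the Myl7-high class for Myl7, Myl4 and Sln. The class difference of Sln was 2.97 (log2 scale, SE 0.45; two-sided exact permutation p = 0.01).

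Over all genes the division into 2 classes called nothing. Of 10582 genes tested, 0 passed a limma adjusted p of 0.05 (0% called; the lowest adjusted p was 0.184, shared by Dhrs3, Myl4, Sln and Akt1s1). Leaving out 1 library at a time called between 0 and 3 genes: Myl4, Sln and Dkk3 passed without mouse 231, which had the lowest Myl7 of its class, and 1 gene passed without mouse 227 (Dhrs3), 240 (Ddx46), 241 (Hps3) or 242 (Golga2). In each of these fits the library left out was the one of its class nearest to the other class, or beyond it, for the genes called, so these calls are no test of the division. The unadjusted p was under 0.05 for 737 genes (6.96% of those tested), 446 higher (4.21%) and 291 lower (2.75%) in Myl7-high libraries, where 529 were expected by chance. This split depended on the scaling: with every library rescaled to the same sum it was 326 higher and 371 lower. The libraries of the classes did not overlap for 86 genes that were higher in the Myl7-high class (0.813%) and 68 that were lower (0.643%). Because the Myl7-high class spans an 11-fold range, the level of Myl7 was also used as a continuous term in place of the class, with genotype kept in the model.

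With that term 6 genes passed the adjusted threshold (0.0567% of 10582), and in all 6 the level rose with Myl7. The slope is the change in log2(FPKM + 1) per unit of log2(Myl7 FPKM + 1). It was 0.76 (SE 0.041) for Myl4 and 0.56 (SE 0.031) for Sln, each with a limma adjusted p of 2.71e-05. Hamp had a slope of 0.62 (SE 0.039, limma adjusted p = 6.53e-05), Mybphl one of 0.48 (SE 0.042, 8.61e-04) and Dkk3 one of 0.39 (SE 0.034, 8.61e-04). The sixth gene was Gpx3, with a slope of 0.081 (SE 0.011, limma adjusted p = 0.0446). Myl4 and Sln as markers, and Mybphl and Dkk3 in the atrial list, were chosen with earlier results of these libraries known. Their p-values are therefore not independent evidence. Sln, Hamp and Mybphl averaged 0.13, 0.14 and 0.33 FPKM in Myl7-low libraries. They met the mean of 1 FPKM needed for the test only through the Myl7-high libraries, so their direction was set by that filter. Myl4, Sln, Hamp, Mybphl and Dkk3 passed in each of the 10 fits that left out 1 library, while Gpx3 passed in these fits only without mouse 240 or mouse 228 and did not pass with any of 3 other scalings. Among the 6 Myl7-high libraries alone Myl4 was the only gene to pass (slope 1.00, limma adjusted p = 0.0278). There the limma adjusted p was 0.305 for Sln, Hamp and Mybphl, 0.585 for Dkk3 and 0.734 for Gpx3.

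Mybphl encodes myosin-binding protein H-like, a thick-filament protein of atrial muscle (chromosome 3, 108364911 to 108380057). It was at 13.1, 8.73 and 1.89 FPKM in mice 217, 227 and 231 and at 9.18, 11.6 and 2.44 FPKM in mice 230, 242 and 243. The Myl7-low mice 240, 241, 228 and 255 had 0.642, 0.142, 0.189 and 0.351 FPKM. The classes did not overlap, and here mouse 228 did not lead its class. Hamp encodes hepcidin, the peptide hormone that limits iron release from cells and is made mainly in the liver (chromosome 7, 30942368 to 30944032). Its levels were 28.3, 12.3 and 3.07 FPKM in mice 217, 227 and 231 and 12.3, 14.8 and 3.39 FPKM in mice 230, 242 and 243. In the Myl7-low class it was at 0.555 FPKM in mouse 228 and listed at 0 in the other libraries. Mice carry a close copy of the gene, Hamp2, which lay between 0 and 1.17 FPKM in Myl7-high and between 0.567 and 1.32 FPKM in Myl7-low libraries, and how reads were shared between the copies is uncertain.

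Dkk3, a secreted glycoprotein of the Dickkopf family (chromosome 7, 112116017 to 112159057), was at 13.8, 13.7 and 3.92 FPKM in mice 217, 227 and 231 and at 16.7, 11.2 and 9.34 FPKM in mice 230, 242 and 243. The Myl7-low mice 240, 241, 228 and 255 had 1.67, 1.25, 3.62 and 0.924 FPKM, and mouse 228 came close to mouse 231. Gpx3, the secreted glutathione peroxidase (chromosome 11, 54902453 to 54910377), was at 163, 154 and 127 FPKM in mice 217, 227 and 231 and at 168, 157 and 142 FPKM in mice 230, 242 and 243. It was at 121, 107, 125 and 99.1 FPKM in mice 240, 241, 228 and 255, which left a gap between the classes of only a few FPKM. Unlike the other 5 genes, Gpx3 was thus abundant in every library.

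The genes differed in how closely their level kept pace with Myl7. In the 6 Myl7-high libraries Myl4 was at 0.956 to 1.23 times the Myl7 level, a 1.29-fold range while Myl4 itself varied 9.19-fold. The ratio to Myl7 lay between 0.116 and 0.202 for Sln, between 0.0905 and 0.159 for Mybphl and between 0.126 and 0.242 for Hamp. These ranges, of 1.74-fold for Sln, 1.75-fold for Mybphl and 1.92-fold for Hamp, were narrower than that of Dkk3, 3.52-fold. For Dhrs3, Fmod, Comp and Nppa the ratio varied 13.1-fold, 9.83-fold, 9.02-fold and 13-fold, which is close to the 11-fold range of Myl7 itself. Those 4 genes therefore did not scale with Myl7 within the class.

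The classes did not overlap for the genes that followed Myl7, so their class differences could only have the same direction in both genotypes. On the log2(FPKM + 1) scale they were 4.26 among NPRA-/- and 3.77 among NPRA+/+ libraries for Myl4, 3.08 and 2.86 for Sln, and 3.54 and 2.97 for Hamp. They were 2.42 and 2.59 for Mybphl and 2.06 and 2.13 for Dkk3. The test of class by genotype called 1 of 10582 genes (0.00945%), and it was none of these. That gene was Rsad1, a radical SAM domain protein (chromosome 11, 94539798 to 94549255), which was listed at 0 in mice 240 and 241 and lay between 2.85 and 4.12 FPKM in the other libraries. Its interaction was 2.32 (log2 scale, SE 0.22, limma adjusted p = 0.0282). The call rests on the 0 values of 2 libraries. Of the 10 fits that left out 1 library, Rsad1 passed in 2, without mouse 231 and without mouse 241, and over all 10 its limma adjusted p ran from 0.0253 to 0.161. Without mouse 241 the interaction test called 9 genes, without 231 or 228 it called 2, without 227 it called 1, and in the other fits it called 0.

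**Figure D2:**
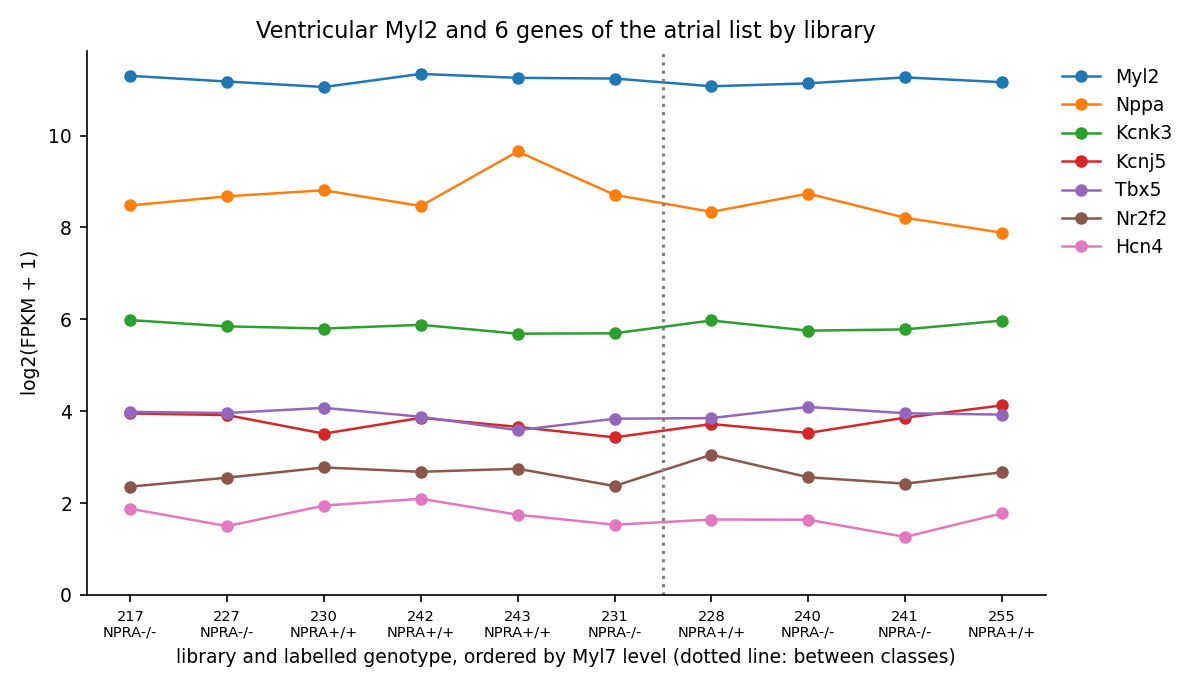
Levels of the ventricular light chain Myl2 and of 6 genes of the atrial list (vertical axis, log2(FPKM + 1)) in the 10 libraries, in the same order by Myl7 level as above. Nppa is highest in mouse 243, at 804 FPKM, and no line falls steeply at the dotted line between the classes.

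The atrial list as a whole differed less than its light chains. Of 26 genes listed, 22 had a listed transcript, and the others were not analysed here. Besides Myl7, which was left out of the test, Nr2f1 did not reach the mean of 1 FPKM needed for it, at 0.654 to 1.10 FPKM. Of the 20 genes tested, 11 were higher and 9 lower in Myl7-high libraries, with a median difference of 0.14. Over all genes 5280 were higher and 5302 lower, with a median of -0.00017, and the split of each list below stands beside these. Myl4, Sln, Mybphl and Dkk3 were the 4 higher with an unadjusted p under 0.05 (4.21% of all genes). They were also the 4 whose classes did not overlap (0.813% of all genes in that direction). The list was chosen with earlier results of these libraries known, so these counts are no test of it. The G-protein-gated potassium channel genes Kcnj3 (4.64 to 7.44 FPKM in Myl7-high and 5.66 to 7.67 FPKM in Myl7-low libraries) and Kcnj5 (9.78 to 14.5 and 10.5 to 16.5 FPKM) overlapped. So did the channel genes Kcna5 (7.95 to 11.5 and 7.23 to 13.2 FPKM) and Kcnk3 (50.5 to 62.3 and 53.0 to 61.9 FPKM). The transcription factor genes Tbx5 (11.01 to 15.8 and 13.4 to 16.1 FPKM) and Nr2f2 (4.13 to 5.85 and 4.36 to 7.29 FPKM) overlapped as well. Ventricular muscle expresses several of these genes too, and the share of their RNA that came from atrial cells was not measured.

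The natriuretic peptides overlapped between the classes. Nppa (chromosome 4, 148000722 to 148002079) was at 356, 408 and 418 FPKM in mice 217, 227 and 231 and at 448, 353 and 804 FPKM in mice 230, 242 and 243. In the Myl7-low mice 240, 241, 228 and 255 it was at 426, 296, 323 and 236 FPKM. Mouse 240, with little Myl7, thus had more Nppa than mouse 217, which had the most Myl7. The class difference was 0.51 (log2 scale; two-sided exact permutation p = 0.11), and without mouse 240 it was 0.64 (exact permutation p = 0.025). Nppb, the gene of B-type natriuretic peptide, lay between 136 and 269 FPKM in Myl7-high libraries and between 51.7 and 184 FPKM in Myl7-low libraries (difference 0.52, exact permutation p = 0.24). Its class difference was -0.0094 among NPRA-/- and 1.05 among NPRA+/+ libraries. Leaving out 1 library moved it between 0.14, without mouse 255, and 0.90, without mouse 228. The difference of Npr1 was -0.065 (exact permutation p = 0.36).

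Genes of the sinoatrial and atrioventricular nodes, which lie in or next to the atria, showed no unadjusted p under 0.05. Of 15 listed genes 8 had a listed transcript and 7 were tested, 4 higher and 3 lower, with a median of 0.11. Hcn4, the main pacemaker channel, was at 1.82 to 3.27 FPKM in Myl7-high and 1.40 to 2.43 FPKM in Myl7-low libraries.

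**Figure D3:**
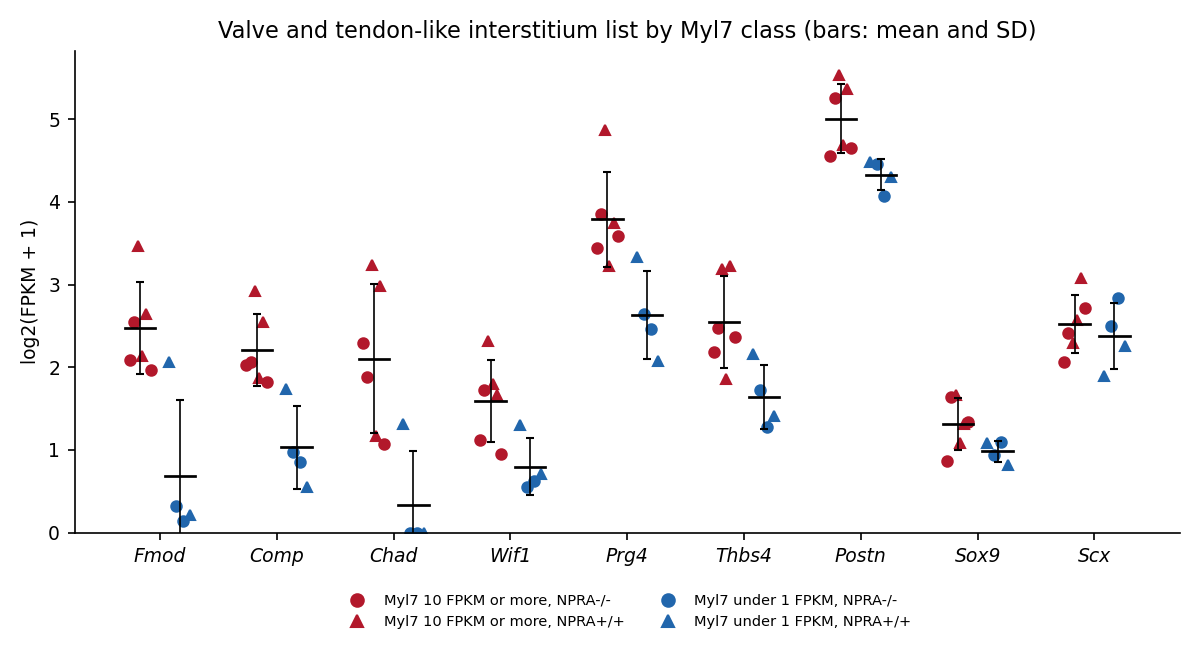
Levels of the 9 tested genes of the valve and tendon-like list (vertical axis, log2(FPKM + 1)), by class: red, Myl7-high; blue, Myl7-low; circles, NPRA-/-; triangles, NPRA+/+; black bars, mean and SD. For Fmod, Comp and Chad the highest blue point is mouse 228, and the highest red point is mouse 230.

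A list of genes of heart valves and tendon-like connective tissue was higher in Myl7-high libraries in all of its 9 tested members, with a median difference of 0.91. In 7 of them the unadjusted p was under 0.05, against 4.21% of all genes in that direction, and none passed the adjusted threshold. Of its 13 listed genes 4 had no listed transcript. Among the 7, Fmod, Chad and Wif1 averaged 0.92, 0.37 and 0.78 FPKM in Myl7-low libraries. They met the mean of 1 FPKM needed for the test only through the Myl7-high libraries, so their direction was set by that filter. Fmod, which encodes the collagen-binding proteoglycan fibromodulin (chromosome 1, 134037254 to 134048277), was at 3.26, 4.87 and 2.90 FPKM in mice 217, 227 and 231 and at 10.05, 3.38 and 5.27 FPKM in mice 230, 242 and 243. In the Myl7-low mice 240, 241, 228 and 255 it was at 0.248, 0.103, 3.17 and 0.162 FPKM, so that mouse 228 lay within the Myl7-high range. Its difference was 1.79 (SE 0.35, limma adjusted p = 0.406). Comp, cartilage oligomeric matrix protein, was at 2.52 to 6.55 FPKM in Myl7-high libraries, at 2.34 FPKM in mouse 228 and at 0.460 to 0.970 FPKM in the other Myl7-low libraries.

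Chad, the cartilage protein chondroadherin, was at 1.49 FPKM in mouse 228, listed at 0 in the other Myl7-low libraries and at 1.10 to 8.43 FPKM in Myl7-high libraries. Prg4, the joint lubricant lubricin, lay between 8.34 and 28.2 FPKM in Myl7-high and between 3.20 and 9.12 FPKM in Myl7-low libraries. Postn, the matrix protein periostin, lay between 22.6 and 45.3 FPKM and between 15.8 and 21.4 FPKM, without overlap. The Wnt inhibitor Wif1 and the matrix protein Thbs4 were also among the 7, whereas the transcription factor genes Sox9 (difference 0.33, SE 0.17) and Scx (difference 0.15, SE 0.22) were not. Summed over the list, the level was highest in mouse 230, at 116.7 FPKM, and next in mouse 243, at 89.0 FPKM, while mouse 217, with the most Myl7, had 51.4 FPKM. Mouse 228 had 46.3 FPKM and the other Myl7-low libraries 29.4 to 35.7 FPKM. The order of the libraries by this sum thus was not their order by Myl7. Abundant members weighed most in the sum, with Postn at 22.6 FPKM in mouse 217 and at 45.3 FPKM in mouse 230. Fmod, Comp and Chad were also highest in mouse 230. With all libraries none of the tested genes of this list passed the test of the slope or that of the class, and Chad passed the slope test without mouse 242. That mouse had 1.26 FPKM of Chad at 73.2 FPKM of Myl7, against 8.43 FPKM in mouse 230 at 75.4 FPKM of Myl7. It goes against a slope of Chad, so the pass without it is no test of that slope.

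Other connective tissue and vessel lists differed less. Of 17 fibroblast genes 13 were higher and 4 lower (median 0.16), and Dcn (decorin), Dpt (dermatopontin), Gsn (gelsolin) and Pcolce, an enhancer of procollagen processing, were higher with an unadjusted p under 0.05, against 4.21% of all genes. With the most abundant transcript alone the direction of Gsn turned. Of 6 lymphatic endothelial genes 5 were higher (median 0.31), 3 of them at that p. Of these, Pdpn, podoplanin, lay between 3.52 and 4.87 FPKM in Myl7-high and between 2.34 and 3.16 FPKM in Myl7-low libraries, and the chemokine gene Ccl21a, which has the close copies Ccl21b and Ccl21c, and the vessel matrix gene Mmrn1 overlapped. Of 16 vascular endothelial genes 3 were higher and 13 lower (median -0.054), and of 17 smooth muscle and pericyte genes 4 were higher and 13 lower (median -0.037). Among 10 endocardial genes 7 were higher (median 0.051), with Cytl1 and Vwf, von Willebrand factor, under an unadjusted p of 0.05 (4.21% of all genes). The epicardial list had 8 tested genes, 5 of them higher (median 0.12). Its member Aldh1a1 is described with retinoic acid below. None of these genes passed the adjusted threshold, and the part of these cell types in the class differences was not tested.

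**Figure D4:**
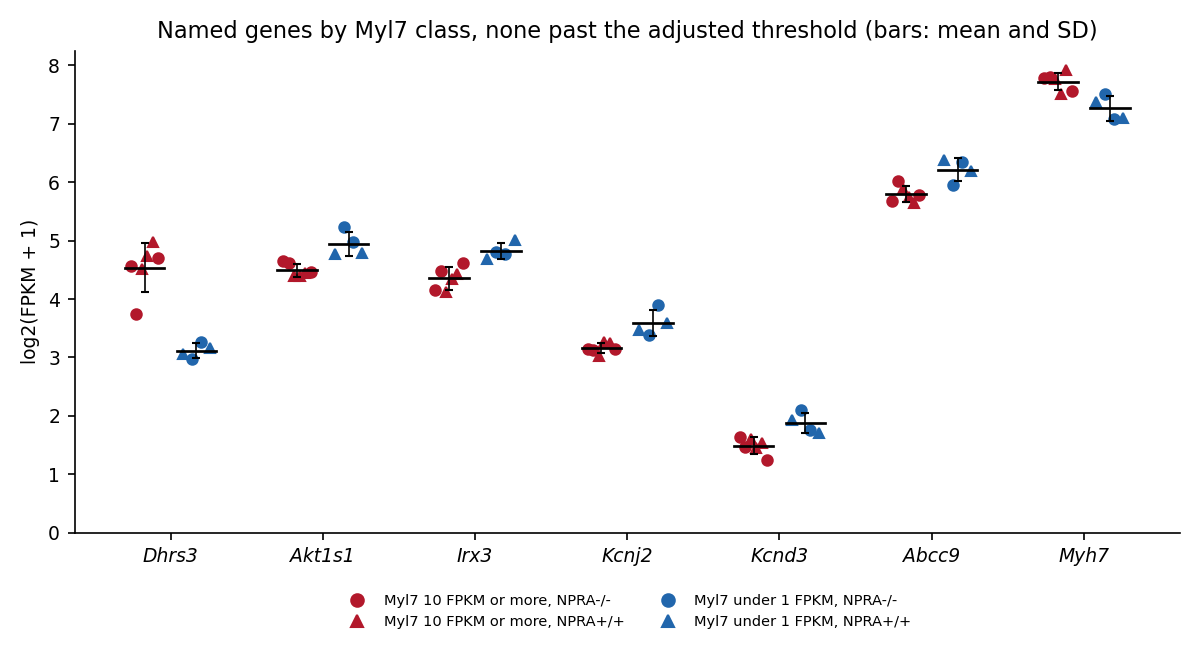
Levels of 7 genes (vertical axis, log2(FPKM + 1)) by class, with colours, symbols and bars as in the plot of valve genes. Dhrs3 is higher in every Myl7-high library than in any Myl7-low library, and Akt1s1, Irx3, Kcnj2 and Kcnd3 are lower without overlap.

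The gene with the smallest p of the class test was Dhrs3, an enzyme that reduces retinaldehyde to retinol and so limits the making of retinoic acid (chromosome 4, 144892827 to 144928209). It was at 22.6, 12.4 and 25.1 FPKM in mice 217, 227 and 231 and at 21.9, 25.7 and 30.6 FPKM in mice 230, 242 and 243. The Myl7-low mice 240, 241, 228 and 255 had 6.82, 8.59, 7.31 and 7.99 FPKM. The classes did not overlap, and mice 231 and 243, the lowest of their class for Myl7, were not low for Dhrs3. Its mean was 23.0 ± 6.07 FPKM in Myl7-high and 7.68 ± 0.779 FPKM in Myl7-low libraries (SD, n = 6 and 4; difference 1.43, SE 0.19, limma adjusted p = 0.184). Over the fits without 1 library the limma adjusted p ran from 0.00162 to 0.372. The lowest came without mouse 227, the Myl7-high library nearest to the other class for Dhrs3, so that value is no test of the division. Of 10 retinoic acid genes tested 8 were higher (median 0.11), and Dhrs3 was the 1 whose classes did not overlap, against 0.813% of all genes in that direction. Besides Dhrs3 these included Aldh1a1, a retinaldehyde dehydrogenase, at 14.6 to 18.9 against 12.03 to 15.3 FPKM (difference 0.30, SE 0.087, limma adjusted p = 0.541).

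The other genes with the smallest p among those higher in Myl7-high libraries were Cyp2e1, Vamp5, Gstk1, Smagp and Tubb2a, next to the genes already described. Cyp2e1, a cytochrome P450, lay between 0.593 and 3.09 FPKM in Myl7-high and between 0 and 0.932 FPKM in Myl7-low libraries. Vamp5, a membrane fusion protein of muscle, lay between 14.1 and 20.4 FPKM and between 10.5 and 12.9 FPKM, without overlap. The beta-tubulin gene Tubb2a also did not overlap, at 15.1 to 18.4 against 11.8 to 14.7 FPKM. Gstk1, a glutathione transferase, and the small membrane glycoprotein gene Smagp overlapped, and the differences of these 5 genes ran from 0.33 to 1.00 on the log2 scale.

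Among the 12 genes with the smallest p that were lower in Myl7-high libraries, Akt1s1, a subunit of the growth-controlling kinase complex mTORC1, came first. It was at 24.1, 23.5 and 21.0 FPKM in mice 217, 227 and 231 and at 20.002, 20.1 and 20.8 FPKM in mice 230, 242 and 243. In mice 240, 241, 228 and 255 it was at 36.4, 30.5, 26.4 and 26.5 FPKM (difference -0.45, SE 0.069, limma adjusted p = 0.184). The classes did not overlap, but with the most abundant transcript alone the direction turned. Golga2, a matrix protein of the Golgi apparatus, was at 8.20 to 9.23 FPKM in 5 Myl7-high libraries, at 38.6 FPKM in mouse 242 and at 38.0 to 42.2 FPKM in the Myl7-low libraries. With all libraries the limma adjusted p was 0.424, and it was 7.96e-07 without mouse 242, which is the 1 library that goes against the division, so the second value is no test of it. The others were Fry, Tirap, Whrn, Galnt15, Lig1, Abhd16a, Foxo3, Irx3, Vwa3a and Abcc9, with differences from -0.95 (Lig1, a DNA ligase) to -0.29 (Galnt15, a glycosyltransferase). With the most abundant transcript alone Lig1 (0.31), Tirap (0.45) and Abcc9 (0.14) turned as well.

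Ventricular and ion channel genes were then examined for the reverse pattern. Of 12 ventricular genes tested 5 were higher and 7 lower (median -0.065). Irx3, a transcription factor of the ventricular conduction system (chromosome 8, 91798525 to 91802067), was at 16.8, 21.4 and 23.5 FPKM in mice 217, 227 and 231 and at 16.3, 19.3 and 20.5 FPKM in mice 230, 242 and 243. It was at 26.9, 26.5, 24.9 and 31.3 FPKM in mice 240, 241, 228 and 255, without overlap (difference -0.47, SE 0.11, limma adjusted p = 0.424). Kcnj2, the inward rectifier that sets the resting potential of ventricular cells, was at 7.16 to 8.66 FPKM in Myl7-high and 9.50 to 14.0 FPKM in Myl7-low libraries. Myh7, the slow beta-myosin heavy chain, went the other way, at 182 to 241 against 134 to 182 FPKM (difference 0.46, limma adjusted p = 0.424).

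Potassium channel genes were lower in 16 of 21 tested members (median -0.080). The 4 with an unadjusted p under 0.05 were Kcnj2, Kcnd3, which carries transient outward current (1.36 to 2.11 against 2.28 to 3.27 FPKM), the modifier subunit gene Kcnv2 (1.69 to 2.71 against 2.62 to 3.70 FPKM) and Abcc9, a subunit of ATP-sensitive potassium channels (49.3 to 63.8 against 60.8 to 82.1 FPKM). Of 14 sodium, calcium and pacemaker channel genes 9 were lower, among them the sodium channel gene Scn4a (0.987 to 1.60 against 1.47 to 2.75 FPKM), with an unadjusted p under 0.05. Against a background of 2.75% of genes lower at that p, 4 of the 21 potassium channel genes were counted, and none of either list passed the adjusted threshold.

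Contractile and calcium genes had list medians near that of all genes, with single members apart from it. Of 28 sarcomere genes tested 17 were higher and 11 lower (median 0.051). Tnnc1, cardiac troponin C, was at 1531 to 1719 FPKM in Myl7-high and 1354 to 1506 FPKM in Myl7-low libraries, without overlap (difference 0.16, limma adjusted p = 0.509). Among 21 calcium cycling genes 13 were higher (median 0.012). Casq1, the calsequestrin of skeletal muscle, lay between 10.7 and 25.7 FPKM in Myl7-high and between 4.85 and 12.1 FPKM in Myl7-low libraries (difference 0.99, limma adjusted p = 0.424). Atp2a2, the calcium pump that sarcolipin inhibits, lay between 1334 and 1570.0 FPKM and between 1514 and 1627 FPKM (difference -0.092, SE 0.046).

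Of the metabolic lists, fatty acid oxidation had 3 higher and 21 lower genes (median -0.048), against 5280 and 5302 of all genes. The fatty acid transporter gene Cd36 was at 503 to 557 against 554 to 601 FPKM (difference -0.14), and Fabp3, the fatty acid binding protein of heart, at 1367 to 1574 against 1307 to 1407 FPKM (difference 0.13). The genes of the citrate cycle (11 of 21 higher), the nuclear respiratory chain (25 of 36), glycolysis and glycogen (18 of 27) and the mitochondrial genome (8 of 13) had medians between 0.00057 and 0.033. Of 15 clock genes 13 were lower (median -0.10), and 1, Nr1d1, had an unadjusted p under 0.05, against 2.75% of all genes lower at that p. The clock repressor Nr1d1 lay between 18.1 and 24.8 FPKM in Myl7-high and between 22.5 and 43.1 FPKM in Myl7-low libraries (difference -0.53, limma adjusted p = 0.541). The sources used here do not give the time of day of collection.

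**Figure D5:**
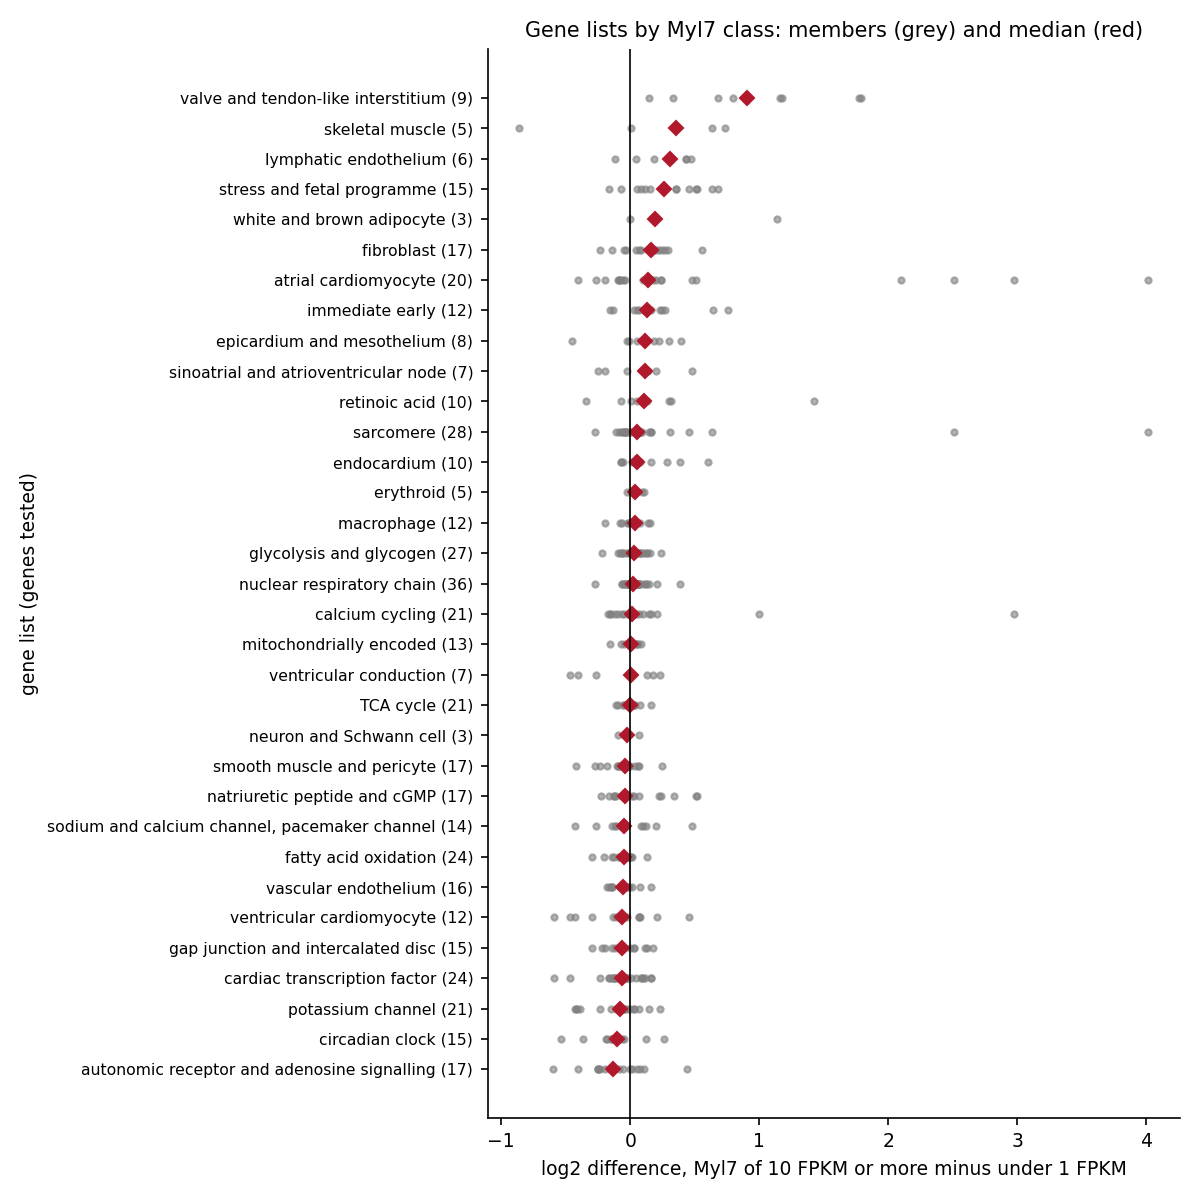
Class difference (horizontal axis, log2 scale, Myl7-high minus Myl7-low) of the tested genes of each list (grey points) and their median (red diamond); the vertical axis names the lists with the number of genes tested, and the black line is the median of all genes. The valve and tendon-like list lies farthest to the right, with a median of 0.91, while the atrial list has a median of 0.14 and 4 members beyond 2.

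Single transcripts were compared to find isoforms that differ where the gene sum does not. Of 16520 listed transcripts 1 passed (0.00605%). This was ENSMUST00000139302.7 of Hnrnpm, which encodes a splicing regulator that binds RNA. It was at 2.99, 3.72 and 5.75 FPKM in mice 217, 227 and 231 and at 4.95, 3.29 and 5.53 FPKM in mice 230, 242 and 243, against 0.201, 0.157, 0.253 and 0.449 FPKM in mice 240, 241, 228 and 255. The classes did not overlap (difference 2.06, SE 0.18, limma adjusted p = 0.0239). The transcript met the mean of 1 FPKM needed for the test only through the Myl7-high libraries, so its direction was set by that filter. Its Myl7-low values lie under 1 FPKM, where levels carry no stated precision. No gene sum passed the class test, that of Hnrnpm included, and the share of this transcript in its gene sum was not examined. Mouse 231, with the lowest Myl7 of its class, had the most of this transcript. Without mouse 228 no transcript passed, and without mouse 230 there were 7.

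The genotype comparison of the study was repeated with the class held. Because the classes hold both genotypes in the same proportion, the genotype differences were unaltered, and only their errors moved. With the class in the model 0 of 10582 genes passed (0% called; limma, 606 at an unadjusted p under 0.05), and without it 1 passed (0.00945%; 568 at an unadjusted p under 0.05). That gene was Eapp, an E2F-associated phosphoprotein, with a difference of -0.73 (NPRA-/- minus NPRA+/+) in both fits and a limma adjusted p of 0.0819 with and 0.0359 without the class. Of the genes at an unadjusted p under 0.05, 513 were shared by the fits, which is 84.7% of those with and 90.3% of those without the class. With the class held, leaving out 1 library gave between 0 and 2 calls, the most without mouse 217.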

How the data were processed

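Poly(A) RNA of 10 myocardium samples was sequenced as strand-specific libraries, and cutadapt, HISAT2 and StringTie were used with build mm10, per the submitters' processing notes; their versions, settings and annotation: not given in the sources used here. The authors deposited a table of transcript levels per library, read here as FPKM; it does not name its unit, so TPM cannot be told apart, and rescaling to the same sum was among the alternatives. Each of the 22157 listed transcripts averaged 0.5 FPKM or more in a genotype group. Low values show no whole-read steps, so depth is unknown, precision rests on the spread between libraries, and a 0 may be a failed estimate.

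Of the transcripts 22107 matched GENCODE vM21 (21011 with the same version; 50 unmatched), and values were summed to 11777 symbols. Libraries were classed by Myl7 (10 FPKM or more against under 1 FPKM); whether the libraries were separate extractions beyond their mouse numbers is not stated, so p-values measure the spread between these samples. Genes and transcripts with a mean of at least 1 FPKM over the 10 libraries were fitted as log2(FPKM + 1), which understates differences of low genes, with limma 3.58.1 in R 4.3.3 (empirical Bayes with trend, class and genotype as terms, Benjamini-Hochberg at 0.05, Myl7 left out). Single genes were tested by exact permutation of class within genotype. The code was tested on simulated data. Figures and sums used Python 3.11.15, numpy 2.4.6, pandas 2.3.3 and matplotlib 3.10.9.

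The classes and the gene lists were chosen with earlier results of these data known, and no p-value is given for a list. The genes named are Myl7, Myl4, Sln, Nppa, Nppb and Npr1; the 12 with the largest class difference in each direction among those called, where places stayed empty these went to the smallest unadjusted p; and from each list up to 4 called members, or up to 2 with the smallest p. Some genes that meet this rule are not reported here. Other list members were named after their values were seen, for their unadjusted p, their place in the atrial list or their role beside a named gene. Each list is described by counts and a median and not by a test, to be read against the counts over all genes.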

Additional observations from a re-analysis of the deposited data

Results flagged for a closer look

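Among the genes named by rule, 150 groups of 4 or 6 libraries were examined for a library far from the rest of its class, and 13 were found, where chance gives about 1 in 20 groups. No explanation was tested for any of them.

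In the Myl7-low class, mouse 228 stood apart for Fmod (3.17 FPKM) and Hamp (0.555 FPKM), both above the other libraries, and for Abhd16a, below them (18.7 FPKM). Mouse 255 stood apart below the others for Nppb (51.7 FPKM), Ccl21a (12.9 FPKM) and Myot, a Z-disc protein (15.9 FPKM). Mouse 241 was above the others for Pdpn (3.16 FPKM).

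In the Myl7-high class, mouse 243 stood above the others for Nppa (804 FPKM) and mouse 230 for Pdpn (4.87 FPKM). Mouse 227 was below the others for Dhrs3 (12.4 FPKM) and Aldh1a1 (14.6 FPKM), which both act on retinaldehyde. Mouse 242 was above the others for Golga2 (38.6 FPKM), and Tnni2, a fast skeletal troponin I, was listed at 0 in that library.

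The class difference of Rsad1 differed between the genotypes, by 2.32 on the log2(FPKM + 1) scale (limma interaction, adjusted p = 0.0282), with 0 listed in both Myl7-low NPRA-/- libraries.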

How the results depend on the processing

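No paired analysis was possible because the genotype groups share no replicate number. The class test called 0 genes under every alternative run except the continuous Myl7 term (6) and some fits without 1 library, which called 0 to 3: Dhrs3 without mouse 227; Myl4, Sln and Dkk3 without 231; Ddx46 without 240, Hps3 without 241 and Golga2 without 242, these 3 lower in Myl7-high libraries. Of the genes at an unadjusted p under 0.05, 60.5% were higher; rescaling to the same sum gave 46.8%, median-of-ratios scaling 56.7% and quantile normalization 53.3%. The continuous term, whose added alternatives were chosen after seeing the data, called 5 to 9 genes without 1 library, 5 with each other scaling, and 1 in the 6 Myl7-high libraries. Transcript calls numbered 2 with a pseudocount of 0.1 or no filter, 0 with a filter of 5 FPKM, and 0 to 7 without 1 library (0 without 228, 7 without 230). The filter of 5 FPKM leaves out the Hnrnpm transcript called in the main fit, so it is no check of that call. Interaction calls numbered 2 with a pseudocount of 0.1, 0 with a filter of 5 FPKM and 0 to 9 without 1 library (9 without 241). That filter also leaves out Rsad1 and so is no check of its call. Genotype calls with the class held numbered 1 at a threshold of 0.1, 1 without the class and 0 to 2 without 1 library. Nppa had a difference of 0.64 without mouse 240 (exact permutation p = 0.025), the only Myl7-low library within the Myl7-high range for this gene. That p is therefore no test of the division. Over the fits without 1 library the difference of Nppa ran from 0.34 to 0.64.

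Of the named genes' values under an alternative, 1738 kept direction and side of the threshold, 10 newly passed and 9 turned, none of them called. With the most abundant transcript of each gene the difference was 0.14 for Abcc9, 0.073 for Akt1s1, -0.81 for Gapdh, -0.068 for Gsn, 0.31 for Lig1 and 0.45 for Tirap. Without mouse 228 it turned for 3 genes, whose range over the fits without 1 library was -0.033 to 0.18 for Cnp, -0.044 to 0.19 for Hba-a1 and -0.042 to 0.20 for Hba-a2. The cause was not tested. Depth is unknown, so levels under about 1 FPKM carry no stated precision.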

Other observations

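Some genes of fat were high in mouse 255, and others were not. Of 12 listed adipocyte genes 8 had a listed transcript, and their sum, mostly Lpl, was 894.7 FPKM in mouse 255, within the 892.6 to 944.5 FPKM of its class. Ucp1, the uncoupling protein of brown fat, was at 5.89 FPKM there, at 0.0904 FPKM in mouse 230 and listed at 0 in the other libraries. Pck1, phosphoenolpyruvate carboxykinase, was at 5.37 FPKM in mouse 255 and at 0 to 0.495 FPKM elsewhere. Adipoq, the fat hormone adiponectin, was at 2.22 FPKM in mouse 255, at 0.176 to 0.247 FPKM in the other Myl7-low libraries and at 0.119 to 1.81 FPKM in Myl7-high libraries. Cfd, the fat-secreted protease adipsin, was at 2.70 FPKM in mouse 255 and at 0 to 0.366 FPKM in the other Myl7-low libraries, but Myl7-high libraries reached 3.51 FPKM, from 0.798 FPKM. Retn, the hormone resistin, was at 0.499 FPKM in mouse 255, listed at 0 in the other Myl7-low libraries and at 0.288 to 2.04 FPKM in Myl7-high libraries. Cidec, a lipid droplet protein, was at 3.60 FPKM in mouse 255 and at 0 to 1.87 FPKM elsewhere. Cidea, a related protein, was at 25.3 FPKM in mouse 255, 15.6 to 18.6 FPKM in the other Myl7-low and 20.05 to 24.1 FPKM in Myl7-high libraries. Ucp1, Pck1, Adipoq, Cidec and Retn did not reach the mean needed for a test.

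Other lists that could show neighbouring tissue gave few members. None of the 15 lymphocyte and thymus genes and none of the 8 lung epithelial genes was among the listed transcripts. The skeletal muscle list summed to 866.96 FPKM in mouse 243 and to 453 to 582 FPKM in the other libraries. Of 12 immediate early genes 10 were higher in Myl7-high libraries (median 0.13), with Atf3, a stress-induced transcription factor, at 2.10 to 4.38 against 1.40 to 2.43 FPKM (limma adjusted p = 0.424). Of 12 macrophage genes 7 were higher (median 0.033) and none had an unadjusted p under 0.05.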
